A study of Mus musculus with 8 samples.

Results

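Apart from Ripk2, the 10 genes here encode proteins that decide whether cells exposed to tumour necrosis factor (TNF) survive, undergo apoptosis or undergo necroptosis. Ripk2 encodes a related kinase that carries signals from the bacterial sensors NOD1 and NOD2. The 10 include the inhibitor-of-apoptosis genes Birc2 and Birc3, the apoptosis gatekeepers Cflar and Casp8, and the adaptors Fadd and Tradd. The others are the RIP kinase genes Ripk1, Ripk2 and Ripk3 and the necroptosis effector Mlkl. The 10 genes were chosen by gene symbol from a list of TNF pathway genes. All 10 were present among the 17364 gene symbols of the data and all 10 passed the filter on low counts, which left 12462 tested genes.

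Poly(A)-selected RNA was sequenced from macrophages that had been grown in culture from mouse bone marrow. The 2 groups were 4 libraries from Sept2C111A mice and 4 libraries from wild-type mice. Septin 2 is a cytoskeletal GTPase encoded by Sept2, and by its name the allele replaces the cysteine at residue 111 with alanine. The series title concerns S-nitrosylated septin 2 in macrophage inflammation and migration. Cells of both genotypes had been exposed for 24 h to 30 ng/ml TNF-α. The data analysed here therefore hold no culture without TNF and cannot show how TNF itself moved a gene. The sources used here do not give the zygosity, strain, sex or age of the mice. The labels also do not say whether the 4 samples of a group came from separate mice or cultures, so p-values measure only the spread among samples, and that spread may be technical.

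TNF binding to its receptor TNFR1 assembles a membrane complex in which TRADD and RIPK1 are held and the ubiquitin ligases cIAP1 and cIAP2 attach ubiquitin chains that lead to NF-κB signalling. When that complex is not maintained, RIPK1 and FADD engage caspase 8, whose activity is restrained by the c-FLIP protein. When caspase 8 is blocked, RIPK1 and RIPK3 form the necrosome, and RIPK3 phosphorylates MLKL, which then permeabilizes the plasma membrane in necroptosis.

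Library totals ran from 19543958 to 21288493 reads and the counts of the 10 genes from 255 to 5214 reads per library. Values are given as CPM, a gene's counts scaled to a common library size after trimmed-mean normalization. Sept2 itself (listed as Septin2) averaged 188 ± 18.7 CPM in Sept2C111A and 226 ± 7.43 CPM in wild type (SD, n = 4 each; log2 fold change -0.27, adjusted p = 0.0627 by edgeR), and a gene count cannot show a base change. The Sept2C111A libraries were the more variable group, with a biological coefficient of variation of 0.138, against 0.0604 in wild type, and Sept2C111A libraries 2 and 3 stood apart from the other 6 on the first principal component. Transcripts of macrophage markers were abundant in every library, and their summed level was 22730 to 25160 CPM in Sept2C111A libraries and 25120 to 26600 CPM in wild-type libraries. Of the 10 macrophage markers, 1, Fcgr1, was called higher and 0 were called lower. Transcripts of fibroblast or stromal markers were also present, with sums of 3493 to 4372 CPM in Sept2C111A libraries and 4370 to 5632 CPM in wild-type libraries, and 2 of the 10 markers were called lower and 0 higher. Smooth muscle markers summed to 669.5 to 1028 CPM in Sept2C111A libraries and 1135 to 1516 CPM in wild-type libraries, with 2 of 4 called lower and 0 higher. T cell markers summed to 18.6 to 23.6 CPM in Sept2C111A libraries and 14.7 to 15.8 CPM in wild-type libraries, nearly all of it Cd4, which was called higher. Each of the neutrophil, B cell, endothelial, dendritic cell and mast cell lists summed to at most 8.75 CPM in any library, and among them Pecam1 was called higher and 0 were called lower. The neutrophil markers Ly6g, Mpo and Elane were at 0 in all wild-type libraries. In bulk RNA, fewer cells of a type and less RNA per cell cannot be told apart.

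The promoter windows of 3 genes are shown because they carry the sequence matches described here, or belong to a gene that was called higher. Sequences are from RefSeq on GRCm38.p6, which is the mm10 build, each running 5′ to 3′ on the gene's strand from 250 bases before to 50 bases after a transcription start site of the promoter table. Such a start site need not be the first base of the gene as annotated, and positions given here are counted from it. Capitals mark matches to the core of the interferon-stimulated response element (ISRE), searched as GAAANNGAAA, and to the interferon-γ activated site (GAS), searched as TTCNNNGAA, both on either strand.
Cflar, chr1:58711241-58711540, plus strand: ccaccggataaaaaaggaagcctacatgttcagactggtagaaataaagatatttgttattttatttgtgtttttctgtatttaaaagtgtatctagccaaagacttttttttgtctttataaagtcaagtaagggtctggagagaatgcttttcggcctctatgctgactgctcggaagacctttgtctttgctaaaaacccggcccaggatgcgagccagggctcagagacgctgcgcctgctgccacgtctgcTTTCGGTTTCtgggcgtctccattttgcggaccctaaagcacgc
Ripk1 (second of its start sites), chr13:34002624-34002923, plus strand: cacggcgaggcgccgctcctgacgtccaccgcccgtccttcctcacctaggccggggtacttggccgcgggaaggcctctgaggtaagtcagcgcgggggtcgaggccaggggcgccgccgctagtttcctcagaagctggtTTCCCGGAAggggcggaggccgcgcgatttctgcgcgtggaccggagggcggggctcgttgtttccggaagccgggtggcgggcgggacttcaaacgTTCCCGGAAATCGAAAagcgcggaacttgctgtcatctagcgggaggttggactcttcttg
Mlkl, chr8:111338156-111338455, minus strand: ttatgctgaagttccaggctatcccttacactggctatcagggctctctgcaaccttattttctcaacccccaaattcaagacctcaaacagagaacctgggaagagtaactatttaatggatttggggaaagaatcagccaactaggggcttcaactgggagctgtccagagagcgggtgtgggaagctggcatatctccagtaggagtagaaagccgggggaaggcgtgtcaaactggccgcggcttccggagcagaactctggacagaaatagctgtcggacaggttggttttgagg
The Cflar window held GAAACCGAAA on the strand opposite to the gene, from 7 to 16 bases past the start site. The Ripk1 window held GAAATCGAAA from 5 bases before to 5 bases past the start site, and TTCCCGGAA at 108 and again at 11 bases before it. The second TTCCCGGAA ends 3 bases before the start site and overlaps the ISRE match. The Mlkl window held no match.

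Entries for 8 of the 10 genes were in the promoter table, with 10 windows in all because Birc2 and Ripk1 have 2 each. Ripk2 and Tradd had no entry, so their promoters were not searched. The ISRE core was found in 2 of the 10 windows, 1 each of Cflar and Ripk1, where 3.44% of the 32851 mouse promoter windows in the table held it. The GAS motif was found in 1 of the 10 windows, the second of Ripk1, where 8.30% of all windows held it. The kappaB consensus, present in 8.46% of all windows, and the AP-1 motif TGANTCA, present in 7.81%, were found in 0 of the 10 windows. A match is a description of letters in a window and shows no binding, and the absence of a match concerns these windows only.

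Among the 10 genes, Ripk2 and Cflar were lower and Mlkl was higher in Sept2C111A macrophages at an adjusted p under 0.05 by edgeR's quasi-likelihood test. Of all 12462 tested genes, 3.03% were called lower and 3.43% higher. The 4 Sept2C111A and 4 wild-type values did not overlap for 5 of the 10 genes, where 16.9% of all tested genes showed no overlap. The median log2 fold change was 0.01 over the 10 genes and 0.01 over all tested genes, with 5 of the 10 negative and 5 positive.

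**Figure D1:**
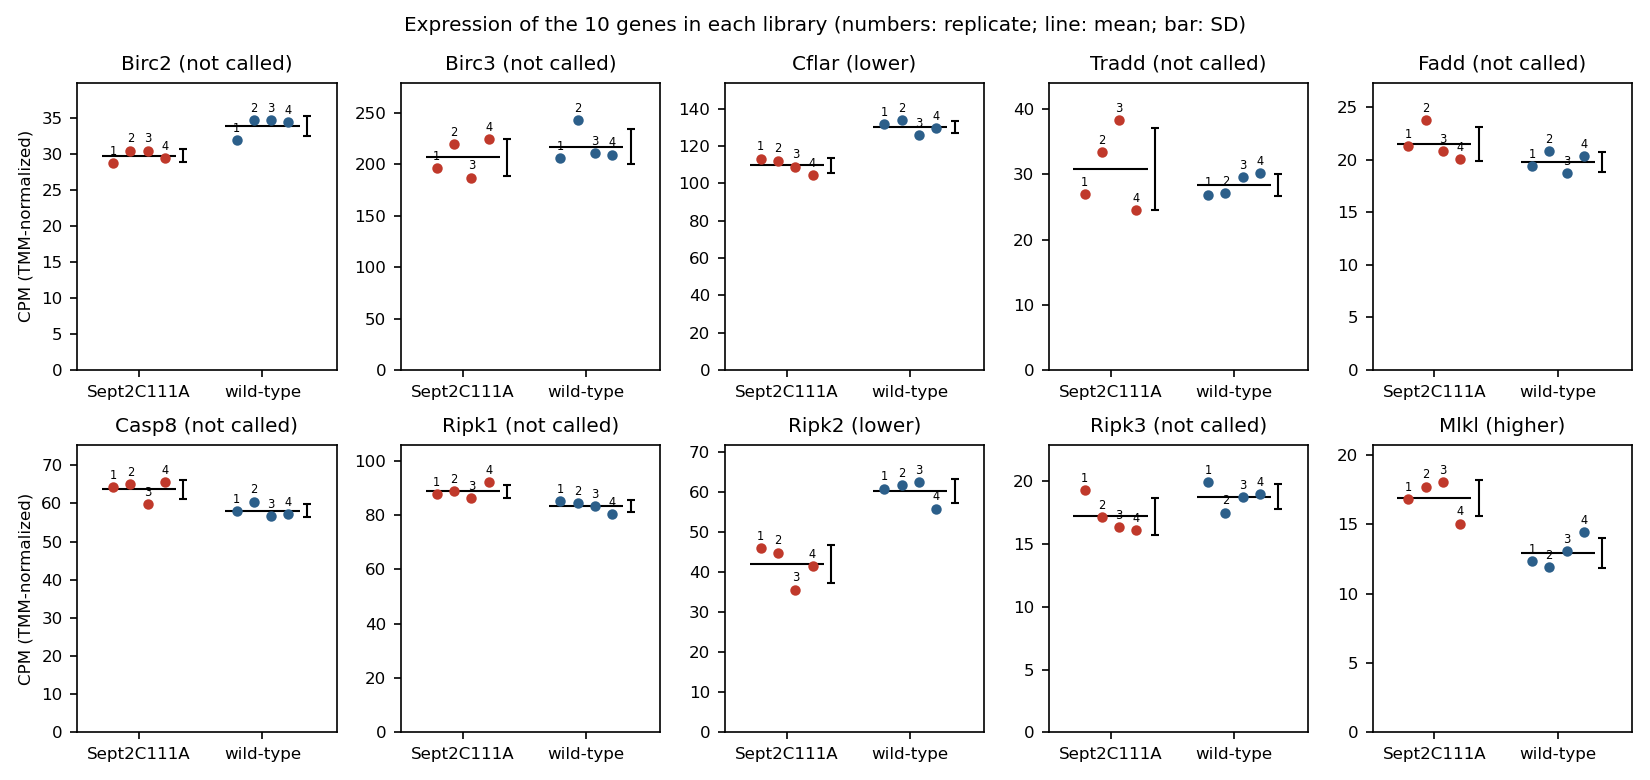
Normalised read counts (CPM, y axis) of the 10 genes in each library, with points for single libraries of the Sept2C111A group and the wild-type group and bars for the group mean and SD. Ripk2, Cflar and Birc2 sit lower in all 4 Sept2C111A libraries than in all 4 wild-type libraries, and Mlkl and Ripk1 sit higher.

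The largest change of the 10 was in Ripk2, which encodes the kinase that carries signals from the bacterial sensors NOD1 and NOD2 to NF-κB. Ripk2 lies at chr4:16122732-16163678 in mm10. It had 46.1, 45.0, 35.7 and 41.5 CPM in the Sept2C111A libraries, against 60.9, 61.9, 62.5 and 55.9 CPM in the wild-type libraries. The highest Sept2C111A value lay below the lowest wild-type value, and replicate 3 was the lowest of the Sept2C111A libraries. The mean was 42.1 ± 4.68 CPM in Sept2C111A and 60.3 ± 2.98 CPM in wild type (SD, n = 4 each), a log2 fold change of -0.52 (SE 0.08) with a 95% interval of -0.71 to -0.33. The edgeR quasi-likelihood test gave a Benjamini-Hochberg adjusted p of 0.00565.

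The genes most alike in pattern to Ripk2 across the 8 libraries were Socs3 (Pearson r = 0.995 of log2 CPM), Nap1l4 (r = 0.987) and Nab2 (r = 0.985). Socs3, the inhibitor of cytokine receptor signalling, averaged 40.3 ± 9.34 CPM in Sept2C111A libraries and 90.7 ± 4.36 CPM in wild-type libraries (n = 4 each). The 8 points fall in 2 genotype groups, so these correlations carry the group difference and are given as a description only.

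Cflar encodes c-FLIP, the catalytically inactive relative of caspase 8 that restrains it, and lies at chr1:58711311-58758884. It had 113, 112, 109 and 104 CPM in the Sept2C111A libraries, against 131.5, 134, 126 and 129.5 CPM in the wild-type libraries. All Sept2C111A values lay below all wild-type values, with little spread inside either group. The mean was 109.6 ± 3.94 CPM in Sept2C111A and 130.2 ± 3.40 CPM in wild type (SD, n = 4 each), a log2 fold change of -0.25 (SE 0.06) and an adjusted p of 0.0266 by edgeR's quasi-likelihood test. The call was lost when any 1 of the 4 wild-type libraries or Sept2C111A library 2 was left out, with adjusted p between 0.0682 and 0.0982, while the log2 fold change stayed between -0.26 and -0.22.

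Casp8, which encodes the initiator caspase that cleaves RIPK1 and RIPK3, lies at chr1:58795233-58847503, starting 36348 bp past the end of Cflar. It had 64.3, 65.0, 59.9 and 65.5 CPM in the Sept2C111A libraries, against 58.0, 60.5, 56.7 and 57.2 CPM in wild-type libraries. Sept2C111A library 3 was within the wild-type values and the other 3 were above all of them. Casp8 was not called (log2 fold change 0.13, SE 0.06, 95% interval 0.0042 to 0.26, adjusted p = 0.188 by edgeR).

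The balance of the caspase 8 and c-FLIP transcripts was described by the ratio of their expected counts within each library, which needs no normalization. The Casp8 to Cflar ratio was 0.568, 0.580, 0.550 and 0.627 in the Sept2C111A libraries, against 0.441, 0.452, 0.451 and 0.442 in the wild-type libraries. All 4 Sept2C111A ratios exceeded all 4 wild-type ratios, and the mean log2 ratio differed by 0.38 between the groups. The exact two-sided permutation test gave p = 0.0286, the smallest value possible for 4 against 4 libraries, or 0.0762 after Benjamini-Hochberg adjustment over the 4 ratios examined. A ratio shows unequal change and does not say which of its genes moved.

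None of the 4 ratios passed 0.05 after adjustment, and the values of the other 3 overlapped between the groups. With a smallest possible p of 0.0286, a ratio that alone separated the groups could not pass 0.05 after adjustment over 4 ratios. The adjusted result therefore cannot decide whether the Casp8 to Cflar ratio differed. The log2 ratio of Ripk3 to Casp8 averaged -1.89 ± 0.12 in Sept2C111A libraries and -1.63 ± 0.11 in wild type (exact permutation p = 0.0571, adjusted p = 0.0762). The log2 ratio of Ripk3 to Ripk1 averaged -2.37 ± 0.14 in Sept2C111A libraries and -2.15 ± 0.09 in wild type (exact permutation p = 0.0571, adjusted p = 0.0762). That of Birc3 to Birc2 averaged 2.80 ± 0.13 in Sept2C111A libraries and 2.68 ± 0.10 in wild type (exact permutation p = 0.229, adjusted p = 0.229).

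**Figure D2:**
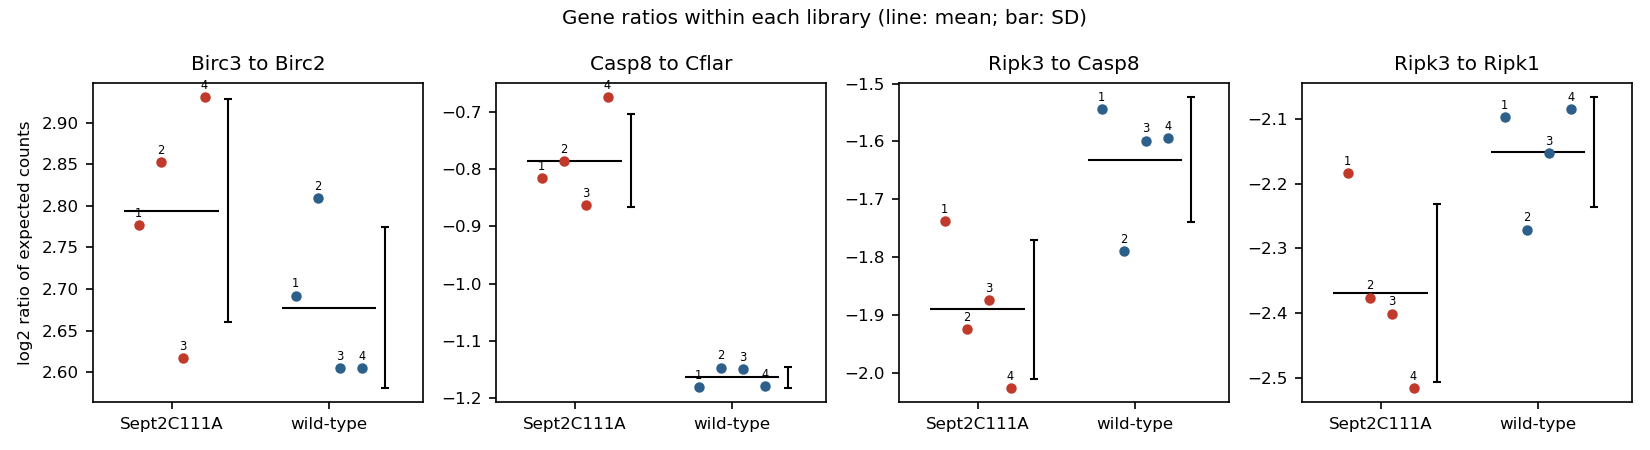
Log2 ratios of the expected counts of 4 gene pairs (y axis) in each library, with points for Sept2C111A libraries and for wild-type libraries and bars for the group mean and SD. The Casp8 to Cflar ratios of the 4 Sept2C111A libraries lie above all 4 wild-type ratios.

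Among the adaptors, neither Fadd nor Tradd was called. Fadd (chr7:144578323-144582441) encodes the adaptor that brings caspase 8 to the complex, and averaged 21.5 ± 1.6 CPM in Sept2C111A libraries and 19.8 ± 0.95 CPM in wild-type libraries (log2 fold change 0.12, adjusted p = 0.371 by edgeR). Tradd (chr8:105258575-105264594) encodes the adaptor that binds TNFR1 and had 27.0, 33.5, 38.4 and 24.5 CPM in Sept2C111A libraries, against 26.9, 27.1, 29.6 and 30.2 CPM in wild-type libraries. The Sept2C111A libraries were the more scattered, with a coefficient of variation of 20.4%, against 5.89% in wild type, and the groups overlapped. The log2 fold change was 0.12 (SE 0.13, adjusted p = 0.611 by edgeR) and became -0.01 without Sept2C111A library 3.

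Birc2 (chr9:7818226-7837131) and Birc3 (chr9:7847468-7873205) encode cIAP1 and cIAP2 and lie 10336 bp apart. Birc2 had 28.7, 30.4, 30.5 and 29.4 CPM in Sept2C111A libraries, against 31.9, 34.7, 34.7 and 34.4 CPM in wild-type libraries. The groups did not overlap, with wild-type library 1 the lowest of its group, but the log2 fold change of -0.19 (SE 0.06) had an adjusted p of 0.0868 by edgeR's quasi-likelihood test and was not called. Birc3 had 196.5, 219.8, 187 and 224 CPM in Sept2C111A libraries, against 206, 243, 211 and 209 CPM in wild-type libraries. These groups overlapped, and the log2 fold change of -0.07 (95% interval -0.25 to 0.11) had an adjusted p of 0.622 by edgeR. The 2 genes are paralogs, so part of their reads may be shared between them by the counting model.

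Of the other RIP kinases, Ripk1 (chr13:34002225-34035170) encodes the kinase and scaffold shared by the survival and death complexes, and Ripk3 (chr14:55784995-55788857) the kinase that phosphorylates MLKL. Ripk1 had 87.6, 88.8, 86.2 and 91.9 CPM in Sept2C111A libraries, against 85.0, 84.4, 83.2 and 80.3 CPM in wild-type libraries. All Sept2C111A values were above all wild-type values, but Ripk1 was not called (log2 fold change 0.09, SE 0.05, adjusted p = 0.327 by edgeR). Ripk3 had 19.3, 17.1, 16.3 and 16.1 CPM in Sept2C111A libraries, against 19.9, 17.5, 18.7 and 19.0 CPM in wild-type libraries, and the groups overlapped (log2 fold change -0.12, adjusted p = 0.374 by edgeR). Ripk1 overlaps Serpinb6a and Ripk3 overlaps the gene model Gm32092 in the annotation, and whether counting used strand is not given.

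Mlkl, at chr8:111311255-111338479, was the only one of the 10 called higher. It had 16.8, 17.7, 18 and 15.0 CPM in Sept2C111A libraries, against 12.3, 11.9, 13.1 and 14.4 CPM in wild-type libraries. All Sept2C111A values were above all wild-type values, and the closest pair were Sept2C111A library 4 and wild-type library 4. The mean was 16.9 ± 1.33 CPM in Sept2C111A and 12.9 ± 1.11 CPM in wild type (SD, n = 4 each), a log2 fold change of 0.39 (SE 0.09, 95% interval 0.19 to 0.59) and an adjusted p of 0.0316 by edgeR's quasi-likelihood test. Leaving out any 1 of wild-type libraries 1, 2 and 3 or Sept2C111A libraries 1, 2 and 3 raised the adjusted p to between 0.0511 and 0.103, while the log2 fold change stayed between 0.35 and 0.45. Without Sept2C111A libraries 2 and 3 together, Mlkl was not called (0.30, adjusted p = 0.139), while Ripk2 (-0.46, adjusted p = 0.00634) and Cflar (-0.26, adjusted p = 0.0460) were.

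**Figure D3:**
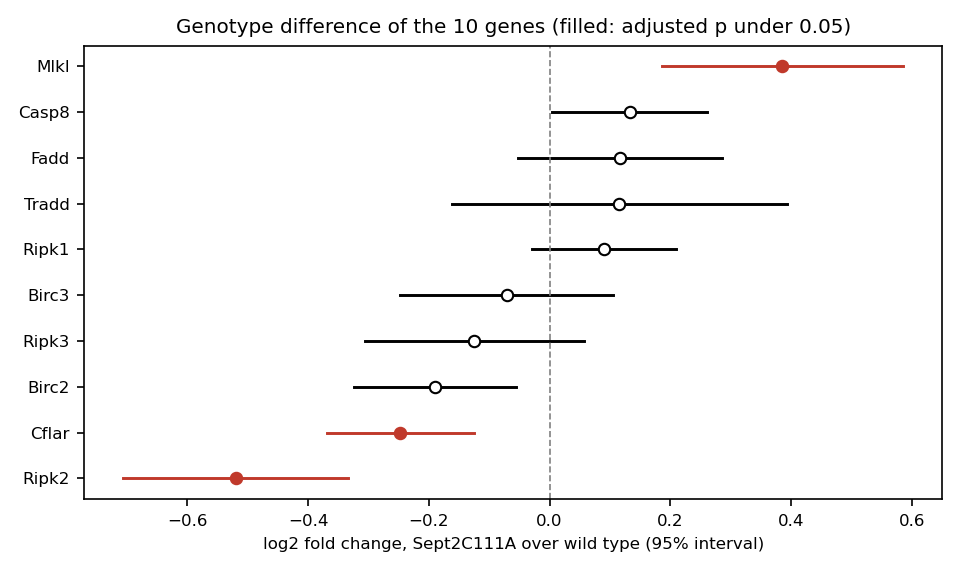
Log2 fold change of Sept2C111A over wild type (x axis) for the 10 genes (y axis), with 95% intervals. Filled points mark Ripk2, Cflar and Mlkl, which were called; the intervals of Birc2 (below 0) and Casp8 (just above 0) also leave out 0, but their adjusted p were 0.0868 and 0.188.

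The 3 called genes were fitted again with the stromal marker score of each library as a covariate, since the summed stromal level moved with genotype. The log2 fold change was -0.45 for Ripk2 (adjusted p = 0.215 by edgeR), -0.27 for Cflar (adjusted p = 0.295) and 0.29 for Mlkl (adjusted p = 0.612), and none of the 3 was called. That fit called 23 genes lower and 52 higher in all, against 377 and 428 without the score. Its SE was 0.12 in place of 0.08 for Ripk2, 0.08 in place of 0.06 for Cflar, and 0.13 in place of 0.09 for Mlkl. Score and genotype moved together, so this fit cannot tell them apart. The part of stromal cells in these results was not tested.

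**Figure D4:**
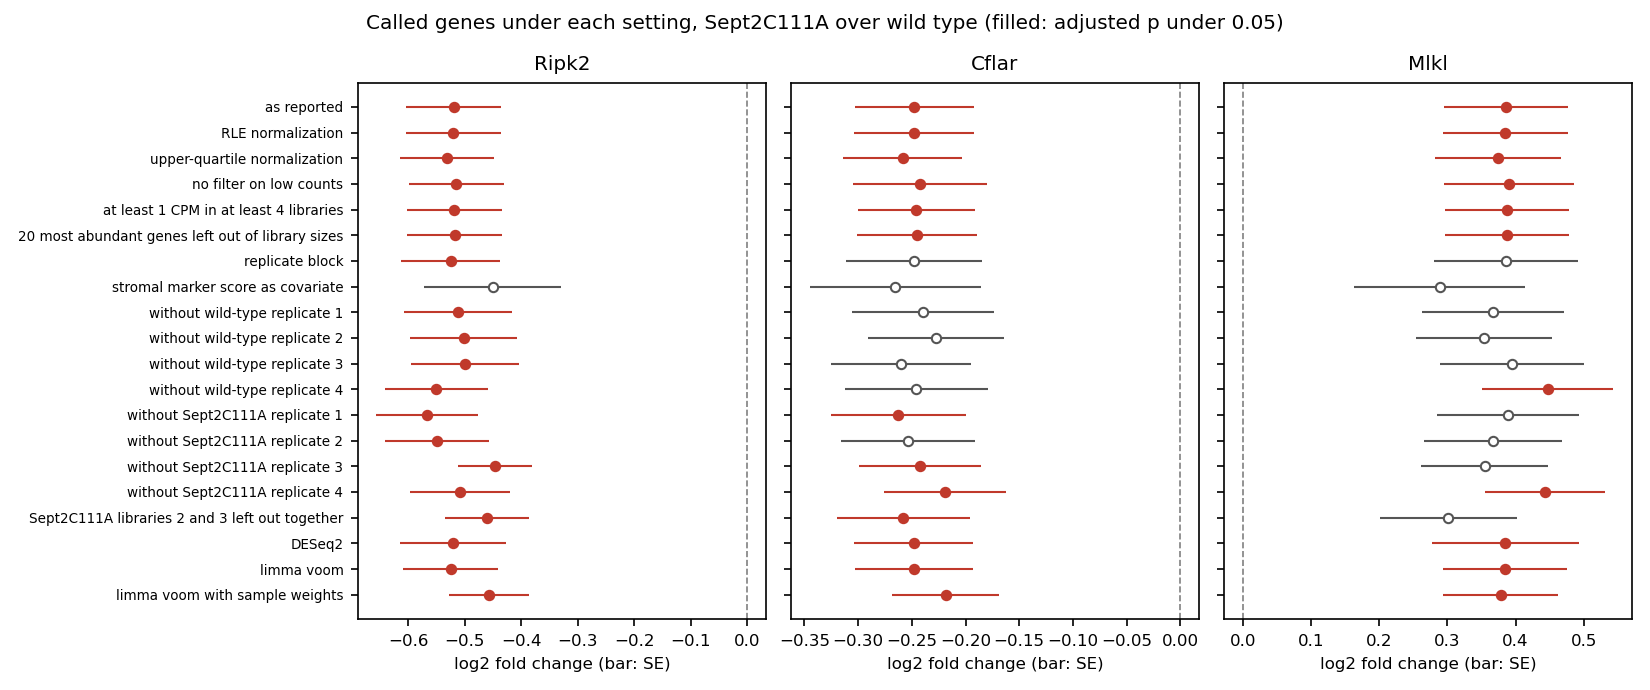
Log2 fold change of Sept2C111A over wild type (x axis, bars show the SE) for Ripk2, Cflar and Mlkl under each processing alternative (y axis), with filled points where the adjusted p was under 0.05. The sign of each gene is the same throughout, and Ripk2 is called in every setting shown except with the stromal marker score as a covariate.

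Levels of different genes were compared as CPM per kb of the median coding transcript length. Birc3 was highest, with 119.5 ± 10.4 CPM per kb in Sept2C111A and 126 ± 10.01 in wild type. Cflar came next, with 42.4 ± 1.53 CPM per kb in Sept2C111A and 50.3 ± 1.31 in wild type, followed by Casp8 with 33.8 ± 1.37 in Sept2C111A and 30.9 ± 0.88 in wild type and by Ripk1 with 27.1 ± 0.75 in Sept2C111A and 25.5 ± 0.64 in wild type. The values of these 4 genes did not overlap in either group. Tradd ranked above Ripk2 in Sept2C111A libraries, where Tradd averaged 18.3 ± 3.71 and Ripk2 15.6 ± 1.74 CPM per kb and their values overlapped. In wild-type libraries Ripk2 ranked above Tradd without overlap, at 22.4 ± 1.11 and 16.8 ± 0.99 CPM per kb. The lower end of the order held Birc2 (9.50 ± 0.28 in Sept2C111A, 10.8 ± 0.44 in wild type), Ripk3 (9.23 ± 0.78 in Sept2C111A, 10.1 ± 0.53 in wild type), Mlkl (8.54 ± 0.67 in Sept2C111A, 6.54 ± 0.56 in wild type) and Fadd (5.51 ± 0.41 in Sept2C111A, 5.08 ± 0.24 in wild type). Birc2 and Ripk3 overlapped in both groups, and Ripk3 and Mlkl overlapped in Sept2C111A libraries but not in wild-type libraries. With the longest transcript as the length, Cflar held rank 4 in place of rank 2 and Ripk1 rank 6 in place of rank 4 in both groups, so the order of the genes in the middle depends on the length used.

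The surrounding pathway was described by 111 distinct genes in 9 lists, of which 105 were tested, 8 were called lower and 4 higher. Over all tested genes the called shares were 3.03% lower and 3.43% higher. The lists were chosen with earlier results of these data known, so the counts do not test for an excess. Of the 8 called lower, 3 are the near-identical copies Bcl2a1a, Bcl2a1b and Bcl2a1d. The median log2 fold change of each list is given beside that of all genes, 0.01.

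The clearest change among the ligands was in Tnf itself, which had 313, 317, 250.2 and 255 CPM in Sept2C111A libraries, against 517, 487, 495 and 509 CPM in wild-type libraries. The groups did not overlap, and the log2 fold change was -0.82 (SE 0.09, adjusted p = 0.000568 by edgeR). Tnfsf12, which encodes the ligand TWEAK, averaged 58.4 ± 6.23 CPM in Sept2C111A and 47.0 ± 2.48 CPM in wild type, a log2 fold change of 0.31 with an adjusted p of 0.0493 by edgeR, and the call was lost when any library other than Sept2C111A library 4 was left out (adjusted p 0.0601 to 0.144) and with RLE normalization, upper-quartile normalization and limma voom (adjusted p 0.0519 to 0.0605). Of the 12 death receptors and ligands, 9 were tested, 1 was called lower and 1 higher, and their median was -0.21. TNFR1 itself, encoded by Tnfrsf1a, averaged 238 ± 5.36 CPM in Sept2C111A libraries and 236 ± 7.17 CPM in wild-type libraries (log2 fold change 0.01, adjusted p = 0.943 by edgeR).

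Of the 18 genes of the receptor complex and its kinases, 1 was called lower and 0 higher, with a median of 0.0005. This was Mapkapk2, which encodes MK2, the kinase that phosphorylates RIPK1, at 764 ± 30.5 CPM in Sept2C111A and 896 ± 24.8 CPM in wild type (log2 fold change -0.23, adjusted p = 0.0467 by edgeR). Of the 11 deubiquitinases and ubiquitin-binding brakes, 1 was called lower and 0 higher, with a median of -0.04. This was Tnfaip3, which encodes the ubiquitin-editing inhibitor A20, at 101 ± 20.1 CPM in Sept2C111A and 146.5 ± 9.25 CPM in wild type (log2 fold change -0.54, adjusted p = 0.0329 by edgeR). Leaving out single libraries removed both calls in several cases, with adjusted p of 0.0534 to 0.165 for Mapkapk2 (any library but Sept2C111A library 4) and 0.0681 to 0.0978 for Tnfaip3 (any wild-type library or Sept2C111A library 2). The Mapkapk2 call was also lost with no filter on low counts (adjusted p = 0.0766) and with the 20 most abundant genes left out of the library sizes (adjusted p = 0.0502).

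Among 18 necroptosis partners, 1 was called higher and 1 lower, with a median of 0.05. Zbp1 encodes a nucleic acid sensor that can engage RIPK3. It had 67.3, 103, 77.1 and 62.2 CPM in Sept2C111A libraries, against 32.9, 38.3, 31.4 and 39.5 CPM in wild-type libraries, without overlap. Zbp1 averaged 77.4 ± 18.1 CPM in Sept2C111A libraries and 35.5 ± 4.00 CPM in wild-type libraries, a log2 fold change of 1.12 (SE 0.15) with an adjusted p of 0.00172 by edgeR, and of 0.70 (adjusted p = 0.0360) with the stromal marker score as a covariate. Hsp90aa1, which encodes a chaperone of RIPK3 and MLKL, averaged 312 ± 20.6 CPM in Sept2C111A and 371 ± 4.97 CPM in wild type (log2 fold change -0.25, adjusted p = 0.0394 by edgeR), and leaving out any wild-type library or Sept2C111A library 2 removed its call (adjusted p 0.0867 to 0.139), as did applying no filter on low counts (adjusted p 0.0560).

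Of the 13 executioner and mitochondrial genes, 0 were called by edgeR, 2 had an unadjusted p under 0.05, DESeq2 called 0, and limma voom called 0 with and without sample weights. Their median was 0.06, and 1 was called higher without Sept2C111A library 4, a fit that called 1094 of all 12583 tested genes higher. The most abundant of them, Bak1, which encodes a mitochondrial pore-forming protein, averaged 201 ± 4.94 CPM in Sept2C111A and 194 ± 4.41 CPM in wild type. Of the 14 genes of the NOD branch that uses RIPK2, 0 were called by edgeR, 2 had an unadjusted p under 0.05, DESeq2 called 1 lower, limma voom called 0 and limma voom with sample weights called 1 lower. Over all genes, DESeq2 called 5.92% lower and limma voom with sample weights 5.44%. Without Sept2C111A library 4, edgeR called 1 of the 14 lower and 1 higher, and 7.81% of all genes lower. It called 1 of the 14 lower and 0 higher with upper-quartile normalization, with replicate number as a block, and without Sept2C111A libraries 2 and 3. The shares of all genes called lower in these 3 fits were 3.24%, 2.02% and 1.65%. Nod2, named after its values were seen, had a log2 fold change of -0.42 with an adjusted p of 0.0578 by edgeR and 0.0156 by DESeq2. Its adjusted p by edgeR was also under 0.05 with upper-quartile normalization (0.0486) and when Sept2C111A library 4 was omitted (0.0483). The same held with replicate number as a block (0.0407) and when Sept2C111A libraries 2 and 3 were both omitted (0.0410). It was above 0.05 when any wild-type library was omitted (0.1125 to 0.1367) or Sept2C111A library 1, 2 or 3 (0.0524 to 0.0584). With the stromal marker score as a covariate it was 0.533. The most abundant gene of that list, Slc15a3, a transporter of muramyl peptides, averaged 601 ± 34.2 CPM in Sept2C111A and 560 ± 18.2 CPM in wild type, and the list's median was -0.01.

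In the BCL2 family, 16 of 17 genes found were tested, 3 were called lower and 1 higher, and the median was -0.01. Bcl2a1d (44.2 ± 7.52 CPM in Sept2C111A, 73.2 ± 5.59 CPM in wild type, log2 fold change -0.73) and Bcl2a1a (7.26 ± 0.71 CPM in Sept2C111A, 12.1 ± 2.82 CPM in wild type, -0.74) encode antiapoptotic proteins and were called lower, as was Bcl2a1b (217 ± 26.3 CPM in Sept2C111A, 279 ± 18.8 CPM in wild type, -0.36), which was named after its values were seen. The adjusted p by edgeR was 0.00505 for Bcl2a1d, 0.0208 for Bcl2a1a and 0.0380 for Bcl2a1b. These genes are near-identical copies, and how their reads were divided is uncertain. Bmf, a BH3-only proapoptotic gene, averaged 12.1 ± 0.55 CPM in Sept2C111A and 8.22 ± 1.21 CPM in wild type, a log2 fold change of 0.56 (adjusted p = 0.0140 by edgeR). Bcl2a1a lost its call when wild-type library 3, wild-type library 4 or Sept2C111A library 2 was omitted (adjusted p 0.0540 to 0.0685). Bcl2a1b lost it when any wild-type library, or library 1 or 2 of Sept2C111A, was omitted (adjusted p 0.0721 to 0.122). Bmf lost it when wild-type library 1 or 3 was omitted (adjusted p 0.0536 and 0.0604). Of the 16 tested, 8 had a negative and 8 a positive log2 fold change, and DESeq2 called 4 lower and 2 higher. Over all 12462 genes DESeq2 called 737 lower and 691 higher. Mcl1 and Bok were named after their values were seen, and neither overlapped between groups. The antiapoptotic Mcl1 was higher (0.25, adjusted p = 0.0777 by edgeR, 0.0240 by DESeq2). The proapoptotic Bok was lower (-0.56, adjusted p = 0.0582 by edgeR).

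Of the 8 other IAP and NAIP genes, 7 were tested and 1 was called higher, with a median of 0.02. This was Naip5, a sensor of bacterial flagellin, at 19.4 ± 0.98 CPM in Sept2C111A and 14.9 ± 1.80 CPM in wild type (log2 fold change 0.37, adjusted p = 0.0412 by edgeR). NAIP genes are close copies, and omitting any 1 of wild-type libraries 1, 3 and 4 and Sept2C111A libraries 1 and 2 ended the call (adjusted p 0.0505 to 0.121). Of the 10 genes of the non-canonical NF-κB pathway, which cIAPs restrain, 1 was called lower, with a median of -0.04. This was Cd40, a costimulatory receptor, at 88.9 ± 9.86 CPM in Sept2C111A and 128 ± 11.2 CPM in wild type (log2 fold change -0.53, adjusted p = 0.00776 by edgeR). With Sept2C111A libraries 2 and 3 left out together, Tnfsf12 (adjusted p = 0.213), Hsp90aa1 (0.0784), Bcl2a1a (0.0697) and Naip5 (0.0948) were not called. With the stromal marker score as a covariate, Tnf, Zbp1 and Bcl2a1d were called and the other 9 of the 12 were not.

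**Figure D5:**
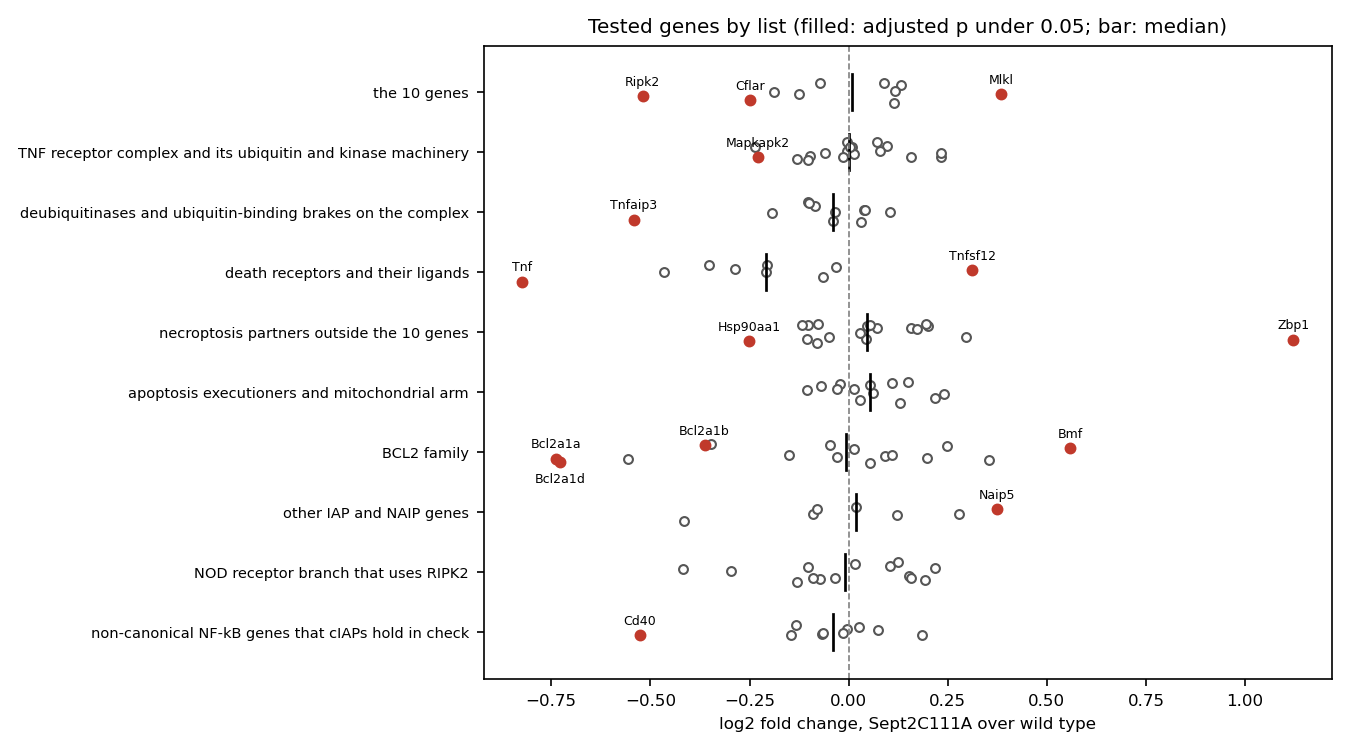
Log2 fold change of Sept2C111A over wild type (x axis) for the tested genes of 9 pathway lists (y axis), with filled points for genes called at an adjusted p under 0.05. Bars mark the list medians, and the top row holds the 10 genes; Tnf lies lowest at -0.82 and Zbp1 highest at 1.12.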

How the data were processed

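Poly(A)-selected RNA of 8 bone-marrow-derived macrophage libraries was sequenced by the authors, and the authors deposited expected counts for each gene symbol. An expected count need not be whole, because reads that match several genes are shared between them. Bowtie2, RSEM 1.3.1, DESeq2 1.4.5 and the build mm10 are named per the submitters' processing notes, without roles. The sources used here do not name the annotation or the strandedness.

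Expected counts were rounded to whole numbers. Genes were filtered with filterByExpr (minimum count 10), normalized by TMM and compared between groups in edgeR 4.0.16 (R 4.3.3) by its two-sided quasi-likelihood test, with genotype alone in the design. P-values were adjusted over all 12462 genes by the Benjamini-Hochberg method, with 0.05 as the threshold of a call. The SE was obtained from the log2 fold change and the F statistic. Ratios were compared by exact permutation tests. The script was tested on simulated data. Alternatives used limma 3.58.1 and DESeq2 1.42.0. Figures were drawn with matplotlib 3.10.9 in Python 3.11.15. Coordinates and promoter sequences come from RefSeq (GRCm38.p6).

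No pair of libraries was a copy: the mean chi-square per gene over genes with at least 200 reads was at least 3.87. The 10 genes and the lists were chosen with earlier results of these data known. All 10 genes are named. From each list up to 3 called genes with the smallest adjusted p are named, or the most abundant tested gene where none was called. For the called member with the smallest adjusted p, the 3 genes most correlated with it are named.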

Additional observations from a re-analysis of the deposited data

Results flagged for a closer look

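Single libraries stood apart from the rest of their group for 2 of the 10 genes. In Birc2, wild-type library 1 was the lowest wild-type value at 31.86 CPM, and its gap to the next library was 0.898 of the whole wild-type range. In Birc3, wild-type library 2 was the highest wild-type value at 243.2 CPM, with a gap of 0.871 of the range. Both gaps exceed the 95% critical value of Dixon's test for 4 samples. Over the 56 groups of 4 libraries examined, 2 were apart in this way, where chance gives about 1 in 20. The cause was not tested.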

How the results depend on the processing

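The 10 genes gave 2 called lower and 1 called higher in the reported fit. With a replicate block the counts were 1 lower and 0 higher, with the stromal marker score as a covariate 0 lower and 0 higher, with Sept2C111A libraries 2 and 3 left out together 2 lower and 0 higher, and at an adjusted p under 0.01 1 lower and 0 higher. Leaving out 1 library gave 1 to 2 called lower and 0 to 1 called higher. Over all genes, 23 were called lower and 52 higher with the stromal marker score. Without Sept2C111A libraries 2 and 3, 210 were called lower (1.65%) and 282 higher. The log2 fold change of Tradd changed sign with the stromal marker score (-0.19) and with Sept2C111A libraries 2 and 3 left out (-0.14), and ran from -0.0059 to 0.22 when 1 library was left out. With the replicate block, 252 genes were called lower and 242 higher over all genes, against 377 and 428 without it. Among the list genes, the block ended the calls of Mapkapk2, Tnfsf12, Hsp90aa1, Naip5 and Bcl2a1b (adjusted p 0.0569 to 0.102), and Nod2 was called (0.0407). The replicate numbers were not shown to pair the samples: correlations of same-numbered samples were 0.130, 0.0882, -0.0192 and -0.205, and not every sample correlated best with its own number. Without Sept2C111A library 4, 983 genes were called lower and 1094 higher over all genes; without wild-type library 3, 104 lower and 162 higher. DESeq2 called 737 lower and 691 higher. The cause of these differences was not tested. With 4 libraries in each group, the exact permutation tests could not give a p under 0.0286.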
